A study of Mus musculus with 4 samples.

Results

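The 10 genes described here take cholesterol to testosterone in the Leydig cell of the mouse testis, or mark and steer that cell: Scarb1, Star, Cyp11a1, Hsd3b1, Hsd3b6, Cyp17a1, Hsd17b3, Insl3, Lhcgr and Nr5a1. They were chosen by name, and every probe set annotated to exactly 1 of them was taken. This gave 16 of the 12488 probe sets on the array, for 9 of the 10 genes and of the 8251 genes that a probe set names alone. Lhcgr, the receptor for luteinizing hormone, was skipped because no probe set used here names it alone. The testes came from C57BL/6J males of 16 weeks, either wild type (Tslc1+/+) or homozygous for a mutant allele of Tslc1 (Tslc1-/-), with 2 arrays per genotype. Tslc1, now named Cadm1, encodes an immunoglobulin-like adhesion protein of the cell surface. The labels do not say which part of the gene was altered, or whether the 2 arrays of each genotype hold RNA of different animals. The p-values therefore rest on array-to-array spread that may be technical.

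Leydig cells lie between the seminiferous tubules and are the main source of testosterone. Luteinizing hormone binds Lhcgr and raises cyclic AMP, after which Star moves cholesterol into the mitochondria. There Cyp11a1 cuts the cholesterol side chain to give pregnenolone, and a 3β-hydroxysteroid dehydrogenase, Cyp17a1 and Hsd17b3 complete the path to testosterone, while the nuclear receptor Nr5a1 (SF-1) drives transcription of many of these genes.

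Across the pathway, the genotypes were not separated in one direction. Scarb1 and the brightest Nr5a1 probe set changed by 0.01 and -0.05 on the log2 scale, Cyp17a1 and Hsd3b1 read lower in Tslc1-/- testis, at 0.672 and 0.645 of their Tslc1+/+ means, and Hsd3b6 read 2.27-fold higher there. Of the 16 probe sets, 12 had a mean signal of at least 200 and were tested, covering all 9 genes, and 4 were dimmer and were not. None of the 12 passed (limma, Benjamini-Hochberg adjusted p under 0.05 over all 7975 tested probe sets), where 1.08% of all tested probe sets passed, 86 in number (0.238% higher in Tslc1-/- and 0.840% lower). That total was 37 to 43 with any 1 array left out, and 0 when the fit did not let the spread follow signal intensity. At an unadjusted p under 0.05 there were 2 of the 12, Hsd3b6 and Cyp17a1, against 10.0% of all tested probe sets. Changes are given as log2(signal + 50) in Tslc1-/- minus the same in Tslc1+/+, a scale on which dim probe sets appear to change less than they do. The changes of the 12 were 6 positive and 6 negative, from -0.58 to 1.07, with a median of -0.02 beside 0.02 for all tested probe sets. On 7 of the 12 (58.3%) the genotypes did not overlap, 3 higher and 4 lower in Tslc1-/-. Over all tested probe sets 40.0% did not overlap, 21.5% higher and 18.5% lower. Since the RNA is from whole testis, fewer Leydig cells and less RNA per cell cannot be told apart.

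The arrays themselves were alike in brightness, with median signals between 361.5 and 378 and highest signals between 132476 and 146239. The number of arrays limits the precision, and the smallest two-sided p open to an exact permutation of 4 arrays in equal groups is 0.333. The targeted transcript followed the labels, although the sources used here do not say whether its probes lie in the altered part of the gene. Cadm1 read 3960 and 3925 on the Tslc1+/+ arrays and 443.5 and 444.9 on the Tslc1-/- arrays of its first tested probe set, a change of -3.01 (limma, adjusted p = 2.31e-05). On the second the change was -2.36 (limma, adjusted p = 1.83e-04). Neither passed without the intensity trend (limma, adjusted p = 0.143 and 0.275).

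**Figure D1:**
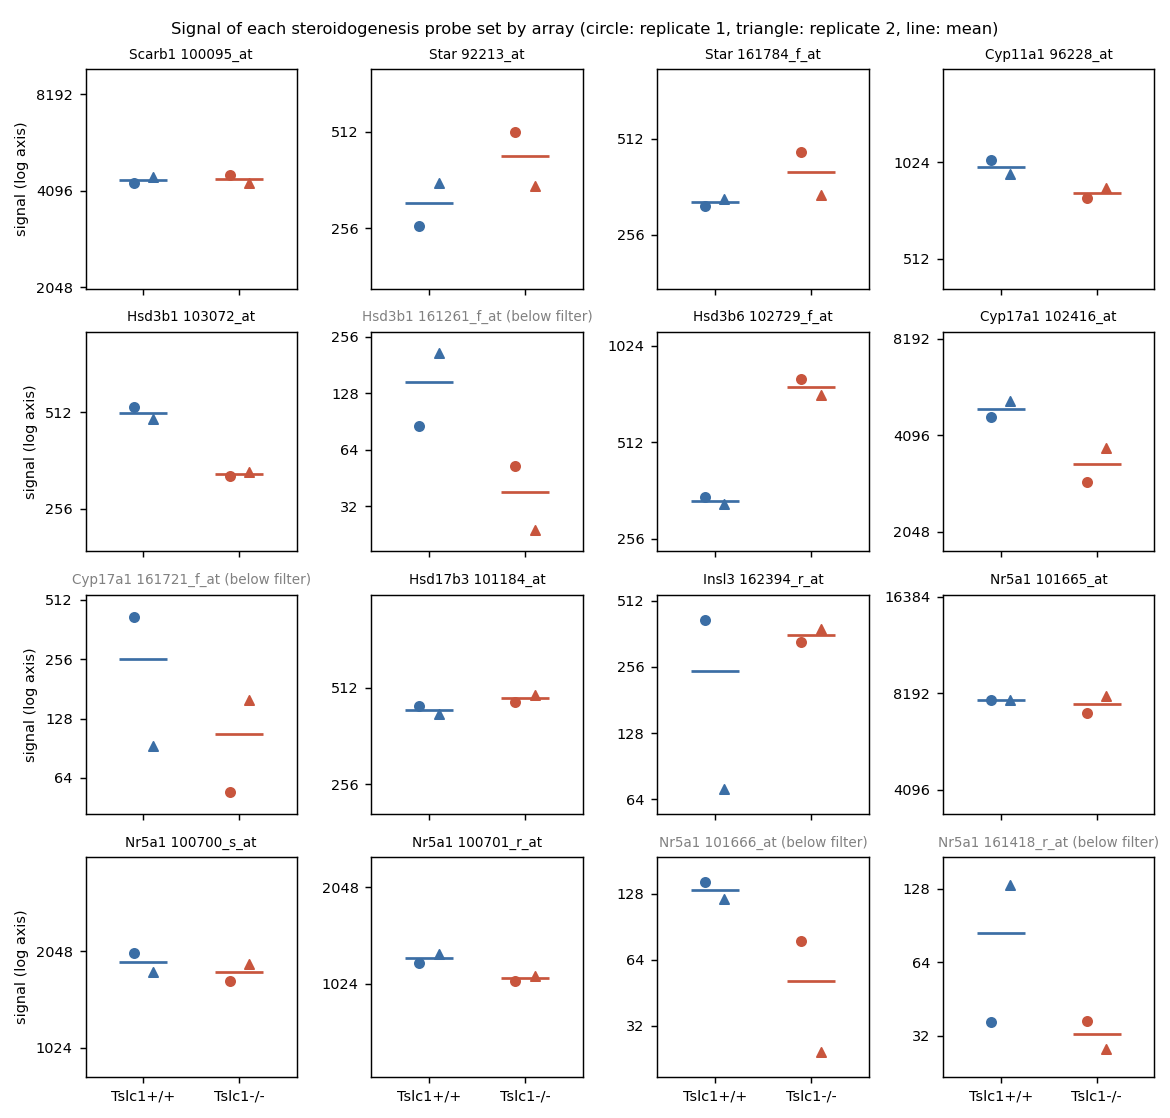
Signal of each of the 16 probe sets (log2-spaced axis, a separate range in each panel), with circles for replicate 1, triangles for replicate 2 and a line at the mean of each genotype. The Hsd3b6 arrays lie at 328.3 to 345.1 in Tslc1+/+ and at 719.7 to 806 in Tslc1-/-, while the Scarb1 arrays lie together at 4331 to 4571.

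The first steps supply cholesterol. Scarb1, on chromosome 5, encodes the scavenger receptor that takes up cholesteryl ester from high density lipoprotein. It read 4331 and 4516 on the Tslc1+/+ arrays against 4571 and 4334 on the Tslc1-/- arrays. The arrays of the genotypes interleave, and the means were 4424 ± 131 and 4452 ± 167 (SD, n = 2). The change was 0.01, with a 95% interval from -0.25 to 0.27 (limma, adjusted p = 0.991), so the interval ran from 0.840-fold to 1.21-fold. Its direction turned, to -0.02 and -0.03, without Tslc1+/+ replicate 1 and without Tslc1-/- replicate 1. The Scarb1 probe set was brighter than 93.1% to 93.7% of the probe sets on each array, a rank of the probe set's brightness and not of the transcript's abundance.

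Star, on chromosome 8, encodes the protein that carries cholesterol to the inner mitochondrial membrane, the step that limits acute steroid output. On probe set 92213_at it read 259.4 and 355.2 in Tslc1+/+ testis, with 512.3 and 346.7 in Tslc1-/- testis. Tslc1-/- replicate 1 was the highest array and the other Tslc1-/- array lay between those of Tslc1+/+, so the genotypes overlap. The change was 0.42, with a 95% interval from -0.50 to 1.33 (limma, adjusted p = 0.795). On probe set 161784_f_at it read 315.5 and 332.4 in Tslc1+/+ against 463.8 and 342 in Tslc1-/-. Here the genotypes did not overlap, but by a narrow margin, and Tslc1-/- replicate 1 was again the highest. The change was 0.26 (limma, adjusted p = 0.871). Without Tslc1-/- replicate 1 both Star values were smaller, at 0.16 and 0.07. The Star probe sets lay near the middle of the array's brightness, above 42.5% to 57.6% of probe sets.

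Cyp11a1, on chromosome 9, encodes the side-chain cleavage enzyme that commits cholesterol to steroid synthesis. It read 1041 and 938.6 on the Tslc1+/+ arrays against 792.1 and 853.8 on the Tslc1-/- arrays. Both Tslc1-/- arrays lay below both Tslc1+/+ arrays, and the means were 989.7 ± 72.3 and 823 ± 43.6 (SD, n = 2). The change was -0.25, with a 95% interval from -0.73 to 0.23 (limma, adjusted p = 0.768).

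The 3β-hydroxysteroid dehydrogenases turn pregnenolone and its derivatives into the next steroids of the path. The pair among the 10 genes, Hsd3b6 and Hsd3b1, read in opposite directions. Hsd3b6 read 345.1 and 328.3 in Tslc1+/+ testis, with 806 and 719.7 in Tslc1-/- testis. Both Tslc1-/- arrays were far above both Tslc1+/+ arrays, with means of 336.7 ± 11.9 and 762.9 ± 61 (SD, n = 2), a ratio of 2.27. The change was 1.07 with a standard error of 0.30 and a 95% interval from 0.41 to 1.73, and it did not pass over all probe sets (limma, unadjusted p = 0.00479, adjusted p = 0.173). With 1 array left out it ran from 0.99 to 1.15. Hsd3b1 read 531.3 and 486.8 in Tslc1+/+ against 323.6 and 333.1 in Tslc1-/- on probe set 103072_at. Both Tslc1-/- arrays were lower, with means of 509 ± 31.5 and 328.4 ± 6.72 (SD, n = 2). The change was -0.56, with a 95% interval from -1.34 to 0.21 (limma, adjusted p = 0.663). Its second probe set, 161261_f_at, was below the signal filter, at 85.5 and 208.9 on the Tslc1+/+ arrays against 52.3 and 23.9 on the Tslc1-/- arrays, and these dim arrays also did not overlap.

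Within each array, log2(signal + 50) of Hsd3b6 minus that of Hsd3b1 was -0.56 and -0.50 in Tslc1+/+ testis, with 1.20 and 1.01 in Tslc1-/- testis. The changes of these probe sets thus differed by 1.63, with both Tslc1-/- arrays above both Tslc1+/+ arrays, a contrast chosen after its values were seen (exact permutation test, two-sided p = 0.333, the smallest possible here). The Hsd3b6 probe set carries the suffix f, which marks a probe set that may also read other members of a sequence family. The remaining family probe sets with 1 gene were mostly dim. Hsd3b2 lay between 47.4 and 156.9, and its genotypes overlap. Hsd3b3 lay between 28.8 and 367.3 and also overlaps. Hsd3b5, dim as well, read 115.5 and 402.5 in Tslc1+/+ against 62.5 and 31.7 in Tslc1-/-, without overlap. These 3 were below the filter on mean signal. Hsd3b7, an enzyme of bile acid synthesis, was tested and had a change of -0.56 (limma, adjusted p = 0.651), with arrays at 567.1 and 778.8 on the Tslc1+/+ arrays against 333.5 and 561.3 on the Tslc1-/- arrays. Whether the Hsd3b6 reading includes RNA of other family members was not tested.

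**Figure D2:**
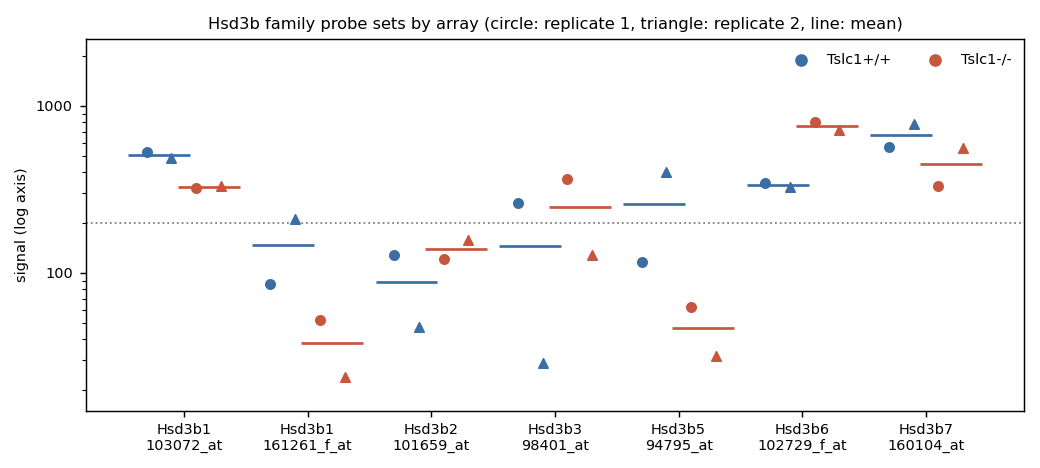
Signal (log axis) of 7 Hsd3b family probe sets on the 4 arrays, with circles for replicate 1, triangles for replicate 2, lines at genotype means and a dotted line at the filter of 200, which applied to the mean of the 4 arrays. Hsd3b6 is higher and the brighter Hsd3b1 probe set lower on both Tslc1-/- arrays, and Hsd3b2, Hsd3b3 and Hsd3b5 scatter around or below the dotted line.

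Hsd3b6 and Hsd3b1 are neighbours on chromosome 3 in a cluster of 6 genes named Hsd3b, with no protein-coding gene between them. Because the readings of these adjacent genes differed in sign, the RefSeq promoter windows of both are shown, each 250 bases before to 50 after the gene's start, 5′ to 3′ on the gene's strand (minus), in GRCm38.p6. The Hsd3b6 window is chr3:98814394-98814693 and that of Hsd3b1 is chr3:98859745-98860044. Capitals mark a match to AGATAA or TGATAA on either strand. These are among the letters bound by GATA factors, which are known regulators of steroidogenic genes. Other forms of the site, such as those ending in G, were not searched or marked.
Hsd3b6: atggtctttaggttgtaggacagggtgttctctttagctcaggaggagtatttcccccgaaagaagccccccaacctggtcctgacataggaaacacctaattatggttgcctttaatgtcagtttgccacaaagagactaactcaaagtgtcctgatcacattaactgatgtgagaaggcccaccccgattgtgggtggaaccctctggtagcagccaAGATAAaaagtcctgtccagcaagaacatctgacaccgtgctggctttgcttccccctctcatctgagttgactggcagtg
Hsd3b1: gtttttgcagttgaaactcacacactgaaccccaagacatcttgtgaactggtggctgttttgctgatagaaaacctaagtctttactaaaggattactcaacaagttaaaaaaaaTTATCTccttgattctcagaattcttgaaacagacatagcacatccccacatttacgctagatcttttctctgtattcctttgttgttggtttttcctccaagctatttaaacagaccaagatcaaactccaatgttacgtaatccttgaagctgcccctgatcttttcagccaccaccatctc
Each window holds 1 match to the letters searched, which is no count of all GATA sites. That of Hsd3b6 begins 31 bases before the start, on the gene's strand. That of Hsd3b1 begins 134 bases before the start, on the opposite strand. Such a match is in 18.6% of all 32851 windows in the RefSeq table. It describes the letters and shows no binding.

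The last steps make androgens. Cyp17a1, on chromosome 19, encodes the hydroxylase and lyase that turns the steroids with a side chain into androgens, and in the mouse testis it is a Leydig cell enzyme. It read 4673 and 5229 in Tslc1+/+ testis, with 2917 and 3733 in Tslc1-/- testis on probe set 102416_at. Both Tslc1-/- arrays were lower, with means of 4951 ± 393 and 3325 ± 578 (SD, n = 2), a ratio of 0.672. The change was -0.58 with a standard error of 0.15 and a 95% interval from -0.90 to -0.25, and it did not pass over all probe sets (limma, unadjusted p = 0.00274, adjusted p = 0.127). With 1 array left out, it ran from -0.75 without Tslc1-/- replicate 2 to -0.40 without Tslc1-/- replicate 1, and it did not pass in any of these 4 fits (limma, adjusted p = 0.121 to 0.531). A second Cyp17a1 probe set, 161721_f_at, was below the filter, at 419.4 and 93.1 in Tslc1+/+ against 54.4 and 159.6 in Tslc1-/-, and there the genotypes overlap.

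Hsd17b3, on chromosome 13, encodes the testis enzyme that reduces androstenedione to testosterone. It read 450.4 and 425.6 on the Tslc1+/+ arrays against 463.6 and 485.8 on the Tslc1-/- arrays. Both Tslc1-/- arrays were higher by a small margin, with means of 438 ± 17.5 and 474.7 ± 15.7 (SD, n = 2). The change was 0.10, with a 95% interval from -0.61 to 0.82 (limma, adjusted p = 0.953). At this signal the fit's spread is wide, so that interval reaches from 0.656-fold to 1.76-fold although the arrays of each genotype lay close together.

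**Figure D3:**
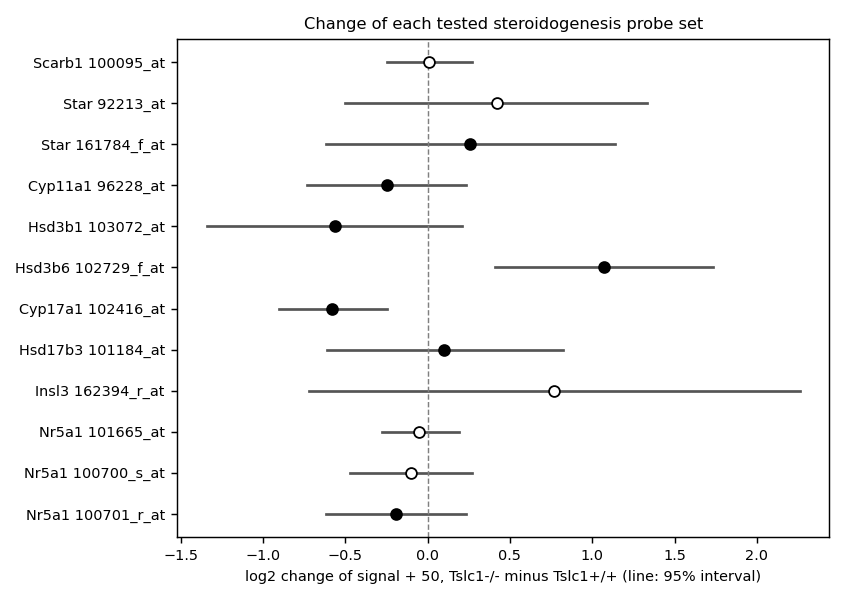
Change of each of the 12 tested probe sets on the log2(signal + 50) scale, Tslc1-/- minus Tslc1+/+, with lines for the 95% interval of the limma fit and filled points where the genotypes did not overlap. The intervals of Hsd3b6 (0.41 to 1.73) and Cyp17a1 (-0.90 to -0.25) leave out 0 before adjustment for the number of probe sets, and the other 10 include it.

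Nr5a1, on chromosome 2, was read by 5 probe sets, 3 of them tested. The brightest, 101665_at, read 7804 and 7819 in Tslc1+/+ testis, with 7110 and 8036 in Tslc1-/- testis. The Tslc1-/- arrays lie on either side of both Tslc1+/+ arrays, and the change was -0.05, with a 95% interval from -0.28 to 0.19 (limma, adjusted p = 0.926). It was 0.04 without Tslc1-/- replicate 1. Probe set 100700_s_at read 2021 and 1767 in Tslc1+/+ against 1651 and 1870 in Tslc1-/-, which overlap, with a change of -0.10 (limma, adjusted p = 0.888). Probe set 100701_r_at read 1187 and 1273 on the Tslc1+/+ arrays against 1049 and 1087 on the Tslc1-/- arrays. The arrays did not overlap between genotypes, and the change was -0.19 (limma, adjusted p = 0.794). The 2 dim ones read 144.3 and 120.9 against 77.5 and 24.3 (101666_at), and 36.2 and 132.2 against 36.8 and 28.2 (161418_r_at). The genotypes did not overlap on the former and overlap on the latter. All 3 tested changes of Nr5a1 were thus slightly negative, and each interval included 0.

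Insl3, on chromosome 8, encodes the insulin-like peptide hormone by which Leydig cells are often recognised. Its single probe set read 420.5 and 71.1 in Tslc1+/+ testis, with 332.7 and 382.6 in Tslc1-/- testis. The Tslc1+/+ arrays differ more from each other than either does from any Tslc1-/- array, and Tslc1+/+ replicate 2 stands alone at the low end. The change was 0.77, with a 95% interval from -0.72 to 2.26 (limma, adjusted p = 0.768), the widest of the 12 intervals. Without Tslc1+/+ replicate 2 it was -0.21, so its direction rests on that array. The probe set carries the suffix r, which marks probes picked under relaxed rules, and it was brighter than 18.5% to 53.7% of probe sets.

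The RefSeq promoter window of Insl3 is shown because it alone, among the 6 genes with a window in the table (Cyp11a1, Hsd3b1, Hsd3b6, Hsd17b3, Insl3 and Lhcgr), holds the letters CAAGGTC or CAAGGCC on either strand, which are the core of the site read by Nr5a1. The window is chr8:71689002-71689301 on the plus strand of GRCm38.p6, with matches in capitals.
Insl3: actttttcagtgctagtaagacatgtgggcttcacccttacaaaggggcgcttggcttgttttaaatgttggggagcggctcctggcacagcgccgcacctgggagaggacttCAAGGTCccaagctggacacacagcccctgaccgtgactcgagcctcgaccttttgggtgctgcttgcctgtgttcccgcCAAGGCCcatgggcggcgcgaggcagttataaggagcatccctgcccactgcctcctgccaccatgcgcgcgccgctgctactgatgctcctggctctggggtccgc
The matches begin 137 and 57 bases before the start, both on the gene's strand. Of all 32851 windows, 9.88% hold such a match, and no match in the other windows says only that these letters are not in them.

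The other genes of the pathway were taken as 7 lists, with 1 probe set a gene, the brightest. They named 84 genes, of which 57 were on the array and 44 were tested. None of the 44 passed (limma, adjusted p under 0.05), where 1.23% of the 5992 tested genes passed. At an unadjusted p under 0.05 there were 11 (25.0%), against 10.5% of tested genes, and the genotypes did not overlap for 27 (61.4%), against 40.8%. The lists were chosen with earlier results of these data known, so these shares are no test of the pathway. The 44 changes were 23 positive and 21 negative. The list medians below are small beside what 1 array does to them. With 1 array left out, 5 of the 7 took values on both sides of 0, among them cholesterol supply from -0.03 to 0.20, other steroid-converting enzymes from -0.52 to 0.26 and androgen-regulated Sertoli cell genes from -0.07 to 0.21. The median of the transcription regulators reached -0.32 without Tslc1+/+ replicate 1.

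Among 9 tested genes of cholesterol supply and transport, 6 changes were positive and 3 negative, with a median of 0.11. The filter shaped these counts. Lipa, at 1.11, had a Tslc1+/+ mean of 118.7, below the level of the filter, and was tested because of its Tslc1-/- signal. Vdac1, with means of 203.2 in Tslc1+/+ and 60.0 in Tslc1-/-, was below the filter and was left out. Abca1, which exports cholesterol from cells, had the smallest p of this list, with 471.6 ± 76.1 and 833.2 ± 51.9 (SD, n = 2) and a change of 0.77 (limma, adjusted p = 0.325). Its second tested probe set was at -0.22. Tspo, the outer mitochondrial membrane protein long linked to cholesterol import, was picked after its values were seen, and had 3302 ± 124 and 4208 ± 384 (SD, n = 2), a change of 0.34 (limma, adjusted p = 0.377). Of 4 electron donors, 1 change was positive and 3 were negative, with a median of -0.04. Cyb5b, a cytochrome b5 of the outer mitochondrial membrane, was at -0.29 (limma, adjusted p = 0.663), and Fdx1, the ferredoxin that feeds electrons to Cyp11a1, was at -0.06 (limma, adjusted p = 0.937).

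Of the other hydroxysteroid dehydrogenases 5 were tested, of 11 on the array, with a median of 0.15. Hsd17b10, a mitochondrial enzyme that also oxidises branched fatty acids, read 662.1 and 842.2 in Tslc1+/+ against 479.2 and 236.5 in Tslc1-/-. The arrays did not overlap between genotypes, and the change was -1.03 (limma, adjusted p = 0.325). It was -0.59 without Tslc1-/- replicate 2 and -1.48 without Tslc1-/- replicate 1. Hsd17b4, a peroxisomal enzyme of fatty acid oxidation, was at 0.51 (limma, adjusted p = 0.407). Other steroid-converting enzymes had only 2 tested genes, Hsd11b1 at 0.03 and Cyp21a1 at -0.28 (limma, adjusted p = 0.621). The latter is an adrenal enzyme, and its probe set carries the suffix s, which marks possible matches to other transcripts.

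In the list of hormone and growth factor signalling, 13 genes were tested and the median was 0.03. Pdgfra, a growth factor receptor of Leydig cell precursors, read 429.2 and 200.8 on the Tslc1+/+ arrays against 1011 and 699.3 on the Tslc1-/- arrays. The genotypes did not overlap, and the change was 1.36 (limma, adjusted p = 0.173). Its second tested probe set was at -1.04, with 1 Tslc1+/+ array at 772.8 and the other 3 arrays at 135.9 to 148.1, so the Pdgfra probe sets disagree in sign. Adcy3, an adenylyl cyclase, was at -1.89 (limma, adjusted p = 0.179), with 527.2 and 533.2 in Tslc1+/+ against 87.4 and 129.3 in Tslc1-/-. The Tslc1-/- means of Adcy3 and of the second Pdgfra probe set, 108.4 and 142.0, were below the level of the signal filter. That filter applied to the mean of all arrays, so both were tested because of their Tslc1+/+ signal. Gnas, the stimulatory G protein that couples Lhcgr to adenylyl cyclase, was at -0.11 (limma, adjusted p = 0.737).

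Of the 7 tested transcription regulators, 3 changes were positive and 4 negative, with a median of 0.00. Sp1, a general activator, was at 0.90 (limma, adjusted p = 0.296), and Nr0b1, the repressor that binds Nr5a1, at 0.04 (limma, adjusted p = 0.969). Gata4, a partner of Nr5a1 on steroidogenic promoters, was at -0.71 (limma, adjusted p = 0.583). It read 832.6 and 981.1 in Tslc1+/+ against 842.4 and 331.9 in Tslc1-/-, so only Tslc1-/- replicate 2 lay below both Tslc1+/+ arrays. The androgen-regulated Sertoli cell genes, which respond to the product of the pathway, did not go one way. Drd4 was at 0.59 (limma, adjusted p = 0.216) and Rhox5, a homeobox gene widely used as an androgen readout, at 0.51 (limma, adjusted p = 0.522). Tubb3 was at -0.29 and the tight junction gene Cldn3 at -1.06 (limma, adjusted p = 0.424 for each). On the brightest probe set, each of these 4 genes had arrays that did not overlap between genotypes, with 2 higher and 2 lower in Tslc1-/-, where 40.8% of tested genes did not overlap. The Tubb3 probe set carries the suffix f, so it may also read other members of a sequence family. On a second Tubb3 probe set with that suffix the genotypes overlap, at -0.27 (limma, adjusted p = 0.801).

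**Figure D4:**
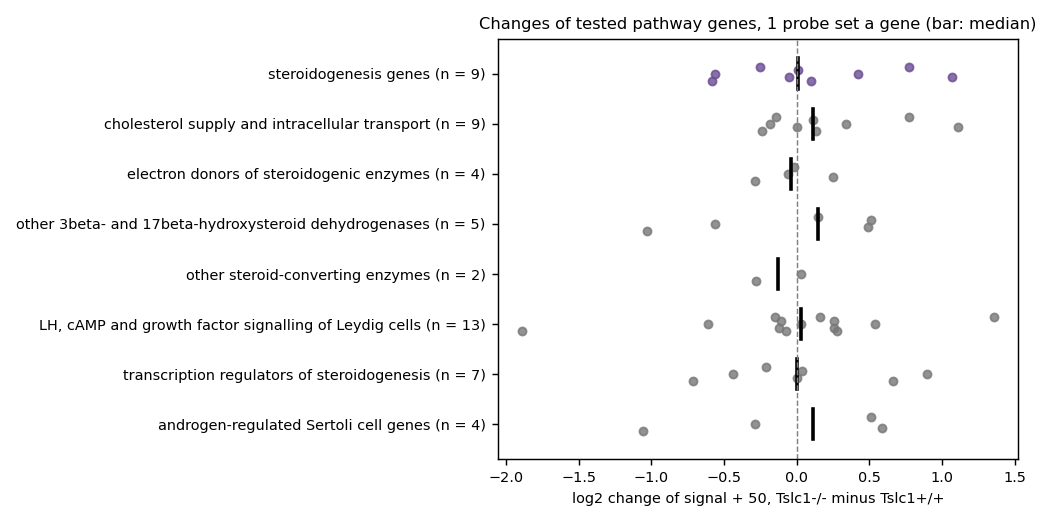
Changes on the log2(signal + 50) scale, Tslc1-/- minus Tslc1+/+, of the 9 steroidogenesis genes and of 7 lists of related genes, with 1 point for the brightest tested probe set of each gene and a bar at the list's median. Medians over the 4 arrays lie between -0.13 and 0.15, and points fall on either side of 0 in every list.

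Markers of Leydig cells other than the 10 genes had 7 tested members, none of which passed, with 5 positive and 2 negative changes and a median of 0.42. These include Ces1d, at 1.08 (limma, adjusted p = 0.67). Its Tslc1+/+ mean, 148.1, was below the level of the signal filter, so Ces1d was tested because of its Tslc1-/- signal. Pdgfra, Fdx1 and Hsd11b1 are also in the pathway lists above. The signal summed over every marker of this list on the array was 14217 to 14666 in Tslc1+/+ and 13401 to 16605 in Tslc1-/-. Without Ptgds, the marker whose mean signal differed most in absolute terms and not as a ratio, it was 7043 to 7287 and 7646 to 9063. The sums over all markers overlap and those without Ptgds do not, but the latter were added after the values were seen. Vcam1, an adhesion molecule found on adult mouse Leydig cells and on vessels, was picked after its values were seen. All 3 of its probe sets read higher on both Tslc1-/- arrays. The brightest read 1688 and 1841 in Tslc1+/+ testis, with 2567 and 2213 in Tslc1-/- testis, a change of 0.42 (limma, adjusted p = 0.375), and the others were at 0.58 and 0.55 (limma, adjusted p = 0.181 and 0.533). Ptgds, a prostaglandin synthase of Leydig and other cells, was at -0.14 (limma, adjusted p = 0.788).

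Markers of other testis cells differed between the genotypes to different degrees, given here as sums over all markers of a list on the array, for Tslc1+/+ and then Tslc1-/-. Of 12 round and elongating spermatid genes 6 fell (limma, adjusted p under 0.05), where 0.968% of tested genes fell. The marker lists were chosen with earlier results of these data known, so their shares beside those of tested genes are no test of a cell type. The 12 spermatid genes summed to 575459 to 595323 and 393136 to 411063, and without Odf1 to 492332 to 504486 and 346335 to 361497. Sertoli cell markers, which share Abca1 and Rhox5 with the pathway lists, summed to 44312 to 46530 and 44998 to 45331, with 0 of 13 passing. Without Ctsl the Sertoli cell sums were 36309 to 36969 and 37292 to 38195, which do not overlap. Peritubular myoid markers summed to 17902 to 19953 and 14395 to 15215, with 1 of 7 lower, the actin gene Actg2, on a probe set with the suffix f. Without Actg2 the myoid sums were 6165 to 7017 and 6292 to 6803, which overlap. Endothelial markers summed to 2921 to 3378 and 2239 to 2362 with 0 of 4 passing. Without Pecam1, an endothelial adhesion molecule at -1.92 (limma, adjusted p = 0.0694), the endothelial sums were 2010 to 2690 and 2118 to 2122, which overlap. The Tslc1-/- mean of Pecam1, 181.1, was below the level of the signal filter, so Pecam1 was tested because of its Tslc1+/+ signal. Of the other tested endothelial genes, Kdr was at -1.13 (limma, adjusted p = 0.61), lower on both Tslc1-/- arrays. Vwf and Eng were at 0.22 and 0.11. Macrophage markers summed to 3642 to 4445 and 4476 to 4729 with 0 of 7 passing, and Adgre1, Lyz2, Ptprc and Tyrobp were below the signal filter. Without Csf1r, the macrophage sums were 2874 to 3508 and 4025 to 4227, which do not overlap. Of the 7 macrophage changes 4 were positive and 3 negative. Among the positive ones H2-Aa, at 1.20, had a Tslc1+/+ mean of 149.8, below the level of the signal filter. It was thus tested because of its Tslc1-/- signal. Meiotic spermatocyte markers summed to 92003 to 95910 and 87365 to 95313 with 1 of 6 lower, the germ cell phosphoglycerate kinase Pgk2. Adrenal cortex, epididymis and fat markers had 2, 1 and 2 tested genes and none passed. At an unadjusted p under 0.05 there were 8 of 12 spermatid genes, 2 of 7 Leydig cell, 1 of 13 Sertoli cell, 1 of 7 myoid, 1 of 4 endothelial, 2 of 7 macrophage, 1 of 6 spermatocyte and 1 of 2 adrenal genes, and 0 of the epididymis and fat lists, against 10.5% of tested genes. The adrenal gene was Mc2r, at 1.43 (limma, adjusted p = 0.488). Its Tslc1+/+ mean, 126.2, was below the level of the signal filter, so Mc2r was tested because of its Tslc1-/- signal. No marker of any list was listed at 0. The part of these cells in the values of the steroidogenesis genes was not tested.

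**Figure D5:**
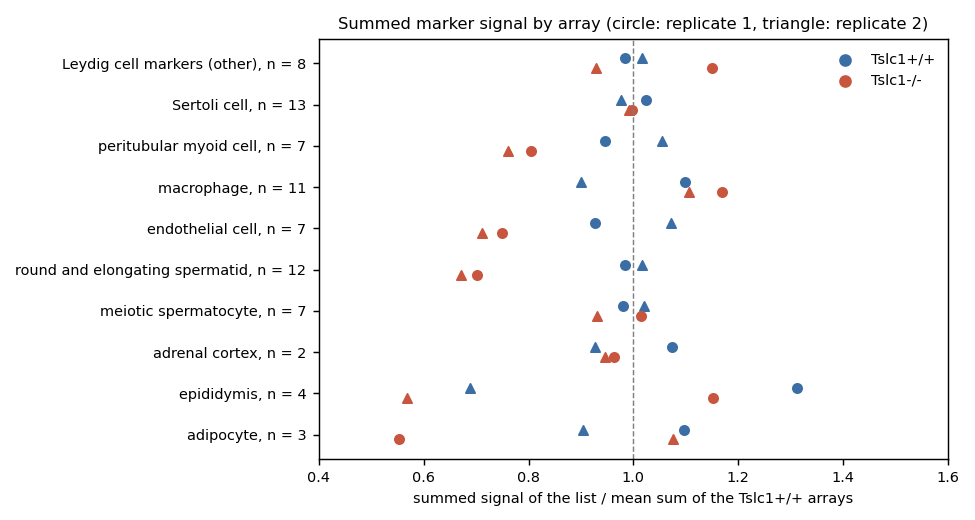
Summed signal of each marker list on each array, divided by the mean sum of the Tslc1+/+ arrays, with circles for replicate 1 and triangles for replicate 2. Spermatid, peritubular myoid and endothelial sums lie lower on both Tslc1-/- arrays, and macrophage sums lie higher. The myoid and endothelial sums overlap without Actg2 and Pecam1, while the spermatid and macrophage sums do not overlap without Odf1 and Csf1r. The Sertoli cell sums of both genotypes lie close to 1. Sertoli and Leydig cell sums overlap over all markers and do not overlap without Ctsl and Ptgds.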

How the data were processed

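The authors deposited 1 linear intensity per probe set, computed with Affymetrix Microarray Suite 5.0 from Mouse Genome U74A version 2 arrays of oligo(dT)-primed, amplified cRNA, per the labels. They scaled each array to a target of 1000. Such scaling hides a change in total RNA. Detection calls and a genome build are not given in the sources used here.

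Genes were named from the platform annotation, and symbols were updated through Entrez identifiers to RefSeq (GRCm38.p6): of 12422 probe sets that are not controls, 10833 name 1 gene, 396 several and 1193 none, and 10817 matched. A probe set that names Insl3 with another gene was left out.

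Without renormalizing, log2(signal + 50) was tested over the 7975 probe sets averaging 200 or more, with limma 3.58.1 in R 4.3.3 (lmFit, eBayes with an intensity trend; two-sided; Benjamini-Hochberg; threshold 0.05). The fit was tested on simulated data whose spread was drawn from its own intensity trend, so that test cannot check the trend. Samples were grouped by genotype from the titles. All probe sets of the 10 genes were described, and from each pathway list the gene with the smallest p; other list genes are named from values already seen. The genes and lists were chosen with earlier results of these data known. Alternatives were pseudocounts of 16 and 200, no filter or one at 500, quantile normalization, equal array medians, no intensity trend, no probe sets with a cross-hybridisation suffix, a replicate block and leaving out each array.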

Additional observations from a re-analysis of the deposited data

How the results depend on the processing

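The 12 tested steroidogenesis probe sets were compared with 13 alternatives. Of 146 values, 141 kept their direction and their side of the threshold, 4 reversed, each with 1 array left out and each with an adjusted p above 0.9, and 1 passed, Cyp17a1 with the replicate block. With 1 array left out, Insl3 ran from -0.21 to 1.75, the brightest Nr5a1 probe set from -0.13 to 0.04 and Scarb1 from -0.03 (-0.02 without Tslc1+/+ replicate 1) to 0.05. Among list genes, the second probe set of Abca1 ran from -1.13 to 0.69 and the second of Pdgfra from -2.10 to 0.03. In the same fits the whole-array count was 37 (without Tslc1+/+ replicate 2) to 43 and that of the steroidogenesis probe sets 0. Cadm1 then ran from -3.02 to -3.01 and from -2.53 to -2.19.

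Without the intensity trend 0 probe sets passed (limma; 638 at an unadjusted p under 0.05), and Cadm1, at -3.01 and -2.36, did not pass. Same-numbered arrays did not deviate together (r = -0.001), which gives no sign that the numbers pair them. With the replicate block, which leaves 1 residual degree of freedom, 239 probe sets passed, 1 of them a steroidogenesis probe set, Cyp17a1 (-0.58, limma, adjusted p = 0.00879), and 1 a list gene, Pdgfra (1.36, adjusted p = 0.0225). With no filter on dim probe sets, calls higher in Tslc1-/- went from 19 to 10. No scaling moved the median of all tested probe sets by over 0.1. Of the 12, the 95% interval was 0.47 wide for the brightest Nr5a1 probe set and 2.98 for Insl3.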
